A study of Homo sapiens with 9 samples.

Results

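The DNA replication and S phase genes described here are 45 genes that act in copying the genome: replication licensing factors, helicase subunits, the sliding clamp and its loader, polymerases, enzymes of nucleotide supply, chromatin assembly factors and the E2F factors E2F1, E2F2, E2F7 and E2F8. They were chosen by name and known role from the 60664 genes counted in each sample, but with earlier results of these data known. The shares of called genes given below, here and for the other lists, are therefore not those of lists chosen blind to the data. All 45 genes were found and passed the filter on low counts that left 18264 genes for testing. RNA was sequenced from MDA-MB-231 cells, an established human breast cancer line, in 9 samples. There were 3 samples of cells with a scramble hairpin (SC cells) in medium of 0.77 cP, the baseline viscosity of culture medium, 3 of SC cells in medium of 8 cP, and 3 of cells at 8 cP with a hairpin against TRPV4 (shTRPV4 cells), a calcium-permeable channel. All 9 were taken on day 6, and all carried a hairpin. The study thickened its media mainly with methylcellulose, and the hairpins were expressed stably from a vector with puromycin selection. The study used mainly 1 of its hairpin sequences against TRPV4, so that loss of TRPV4 and other effects of that hairpin cannot be told apart, and no samples of shTRPV4 cells at 0.77 cP were analysed here. Neither the labels nor the methods say whether the 3 samples of a group came from separate cultures, and the tests measure only the spread between these samples.

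Before S phase, the origin recognition complex (ORC) with CDC6 and CDT1 loads the MCM2 to MCM7 helicase onto origins, and geminin (GMNN) blocks CDT1 once S phase has begun. CDC45 and the GINS complex then turn the loaded MCM ring into an active helicase, and polymerases held on DNA by the PCNA ring copy each strand, the ring being placed there by the RFC loader. Many of these genes are transcribed in late G1 and S phase under E2F factors, which the RB protein holds back until cyclin-dependent kinases inactivate it, so their RNA serves widely as a mark of proliferating cells.

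Each sample held between 64571681 and 103518036 counts. TRPV4 had between 24 and 64 counts in the SC samples and 7, 1 and 13 counts in the shTRPV4 samples, so the knockdown went with the labels. Of the markers expected in this line VIM, CD44, EGFR, AXL and CAV1 were abundant in every sample, while SPARC stayed at or below 1.63 CPM (a gene's counts scaled to the size of its library, with edgeR's TMM factors). Of 8 luminal or epithelial markers ESR1, PGR, CDH1 and FOXA1 stayed at or below 0.133 CPM, while KRT18 stood between 284.5 and 350.1 CPM, EPCAM between 16.9 and 19.4, GATA3 between 11.9 and 16.4 and ERBB3 between 3.21 and 4.58. The summed level of these 8 was 363 to 386 CPM in SC cells at 0.77 cP, 318 to 333 CPM in SC cells at 8 cP and 354 to 388 CPM in shTRPV4 cells, most of it from KRT18, and its part in the results was not tested. The summed level of 5 leukocyte markers lay between 0.284 and 0.661 CPM. The summed level of 6 fibroblast markers was between 38.7 and 47.3 CPM in SC cells at 0.77 cP and between 23.7 and 29.7 CPM in the samples at 8 cP, mostly from COL1A2, and its part in the results below was not tested.

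At 8 cP, SC cells had more RNA of most replication genes than at 0.77 cP, by a small amount in each. All 45 fold changes were above 0, and 32 of the 45 genes were higher and 0 lower at an adjusted p under 0.05 (quasi-likelihood test of edgeR, adjusted by Benjamini-Hochberg over all genes tested). Among all genes tested 9.57% were higher and 9.69% lower in this comparison. The median log2 fold change of the 45 genes was 0.24, an increase of 17.7%, beside a median of -0.0065 over all genes tested. The called genes rose by between 9.9% (LIG1) and 44% (CLSPN). The 13 genes that did not pass the threshold had log2 fold changes between 0.06 (E2F8) and 0.34 (POLA2), and 42 of the 45 had an unadjusted p under 0.05. These are bulk samples, in which a larger share of cells in S phase and more RNA of these genes per cell cannot be told apart. The study reported that elevated viscosity left cell proliferation unaltered, in cells brought acutely from baseline viscosity. Proliferation of the cells sequenced on day 6 was not tested here.

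**Figure D1:**
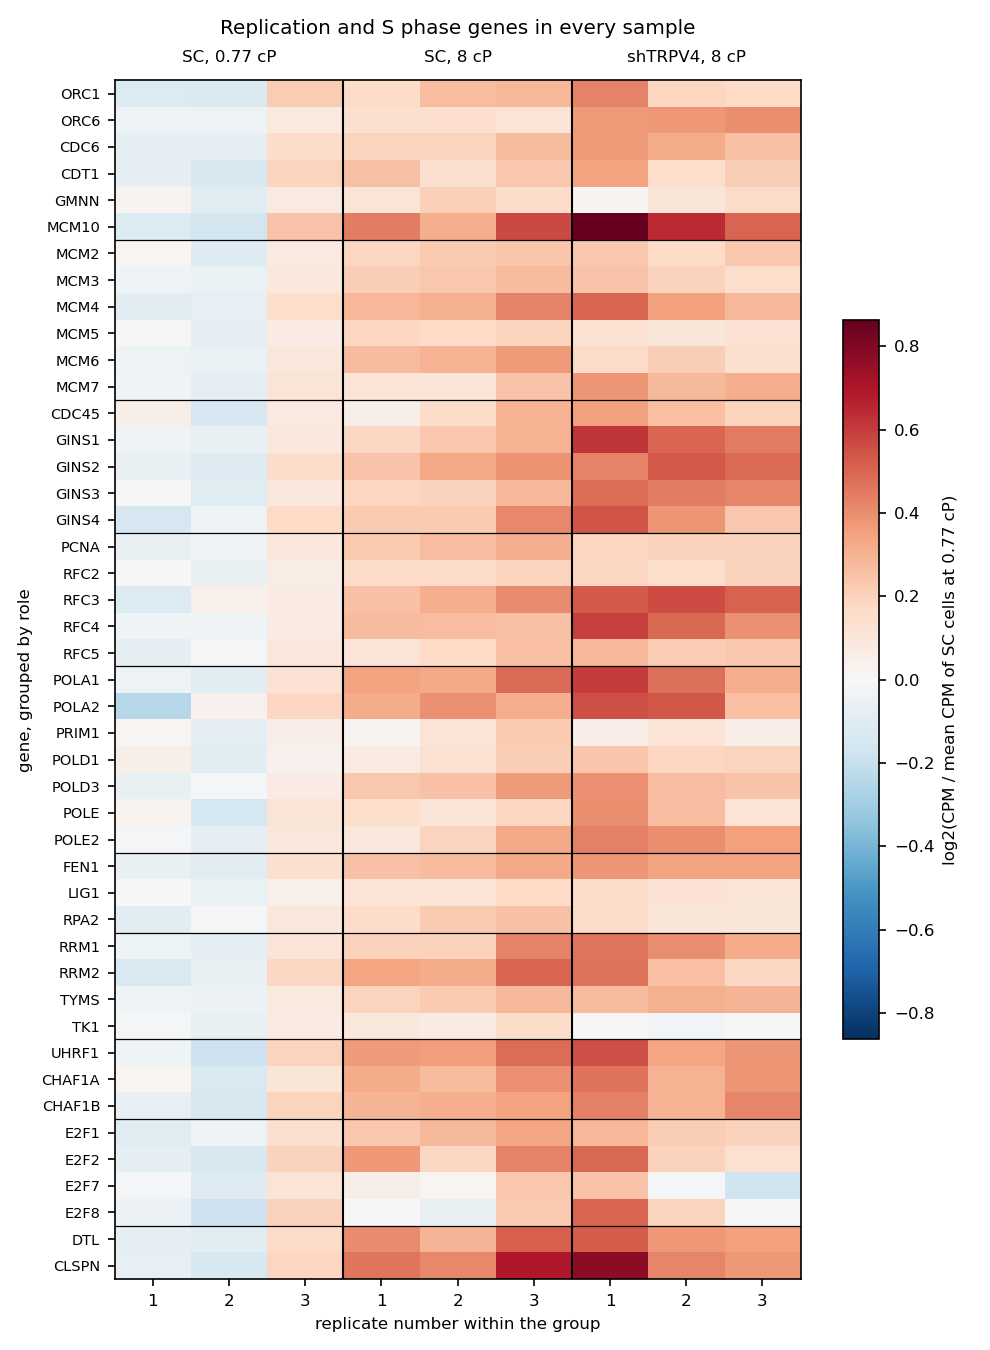
Level of each of the 45 genes (rows, grouped by role) in each of the 9 samples (columns, by group and replicate number), as the log2 ratio of its CPM to the mean CPM of SC cells at 0.77 cP, with red above and blue below that mean. Most rows turn from pale blue to red between the SC cells at 0.77 cP and both groups at 8 cP, and replicate 3 of the SC cells at 0.77 cP is the reddest of its group in nearly every row.

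The genes moved together between replicates as well as between groups. The summed level of the 45 genes was 4254, 4151 and 4742 CPM at 0.77 cP (SC cells, replicates 1 to 3), 5073, 5101 and 5460 CPM in SC cells at 8 cP, and 5549, 5229 and 5148 CPM in shTRPV4 cells. The 3 samples at 0.77 cP all lay below the 6 samples at 8 cP, and both groups at 8 cP overlapped. Replicate 3 was the highest of the 3 SC samples at 0.77 cP for 44 of the 45 genes, although it was the highest for 35.6% of all genes tested. Likewise replicate 3 was the highest of the SC samples at 8 cP for 40 of the 45 genes (35.2% of all genes tested), and replicate 1 the highest of the shTRPV4 samples for 34 (39.7%). The 45 genes are therefore not 45 separate measurements of the difference between groups, since a shift of 1 sample moves nearly all of them.

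The count of called genes depended on single samples, as did the count over all genes tested. Without replicate 3 of SC cells at 0.77 cP it was 42, with a median log2 fold change of 0.32. Without replicate 1 of SC cells at 0.77 cP it fell to 21, and without replicate 3 of SC cells at 8 cP it was also 21. In those 3 fits the share of all genes tested that were higher was 12.6%, 3.61% and 3.66%. Of the 32 genes, 19 were called in each of the 9 fits that left out 1 sample, and all 32 kept a fold change above 0 in them.

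The sequences before the start sites of these genes are shown because the genes moved together and because E2F letters near the start are a known feature of the class. RefSeq windows of 300 bases (build GRCh38.p14, from 250 bases before to 50 after each annotated start) were had for 39 of the 45 genes, with 50 windows in all, and not for POLD3, RPA2, GINS4, E2F8, MCM4 and MCM5. The E2F letters searched, on both strands, were TTTCCCGC, TTTCGCGC, TTTGCCGC and TTTGGCGC. They were found in 24 of the 50 windows (48%), which belong to 23 of the 39 genes, against 4.73% of the windows of all genes tested and 3.31% of all 35116 windows of the table. There were 31 matches, counting each strand and each overlap, and 21 of them began within 60 bases of the start. The letters below run 5′ to 3′ on the strand of the gene, the capitals mark the E2F letters or their reverse complement, and positions are in GRCh38.p14. The genes shown are examples picked, after their values were seen, from the 23 with a match. Others with clear changes, MCM10, CHAF1A, ORC6 and RFC4, have windows without the letters.
MCM6, chr2:135876514-135876603, minus strand: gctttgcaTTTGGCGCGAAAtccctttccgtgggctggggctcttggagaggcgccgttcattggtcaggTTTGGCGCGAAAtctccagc
PCNA, chr20:5126663-5126692, minus strand: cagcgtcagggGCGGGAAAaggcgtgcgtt
MCM3, chr6:52284728-52284757, minus strand: agttcggaagtTTTCGCGCcggggtggagt
RFC3, chr13:33818083-33818112, plus strand: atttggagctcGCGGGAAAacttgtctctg
DTL, chr1:212035729-212035758, plus strand: cgtgacgtcagTTTGGCGCggagtttggcg
UHRF1, chr19:4909476-4909505, plus strand: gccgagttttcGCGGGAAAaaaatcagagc
E2F1, chr20:33686387-33686416, minus strand: ggcaaaaaggaTTTGGCGCgtaaaagtggc
CLSPN, chr1:35769965-35769994, minus strand: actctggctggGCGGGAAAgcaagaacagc
GINS1, chr20:25407667-25407696, plus strand: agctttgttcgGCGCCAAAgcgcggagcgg
The MCM6 stretch, at offsets of -160 to -71 from the start, holds 4 matches in 90 bases. They begin at -152, -148, -90 and -86, as a pair of blocks in which the letters on both strands overlap. In the other lines the first capital lies at an offset between -59 (PCNA) and 5 (GINS1). Of the 23 genes with the letters, 18 were higher in SC cells at 8 cP, with a median log2 fold change of 0.24. Of the 16 genes with a window but without the letters 9 were higher, with a median of 0.21, and these shares were not tested against each other.

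Other promoter letters set the replication genes beside a list of 40 mitosis genes. The CCAAT box, the letters CCAAT that the factor NF-Y binds, was in 62% of the 50 windows of the replication genes and in 75.6% of the 45 windows of the mitosis genes, beside 34.3% for all genes tested. The cell cycle homology region (CHR), TTTGAA, which marks many genes of G2 and mitosis, was in 1 window of the replication genes, that of RRM1 (2%), against 62.2% of the windows of the mitosis genes and 10.8% of those of all genes tested. The E2F letters were in 8.89% of the windows of the mitosis genes. A match says only that these letters are present.

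**Figure D2:**
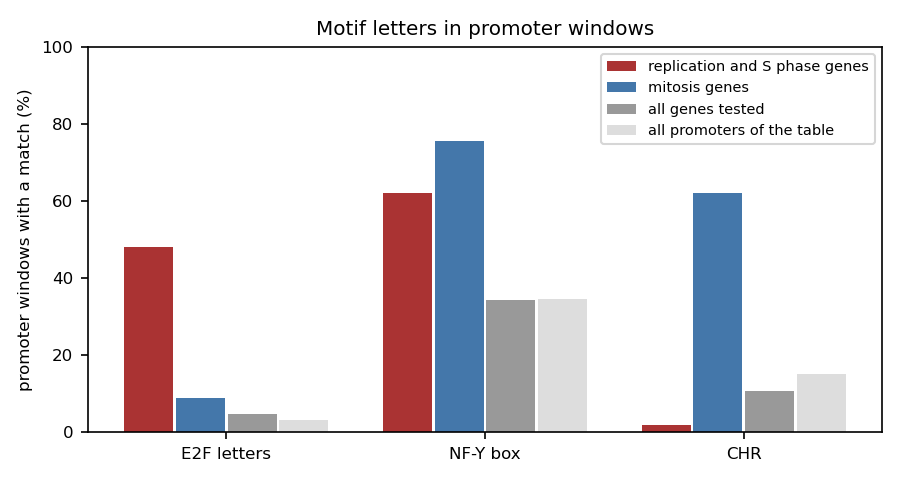
Share of promoter windows of 300 bases (%, vertical axis) that hold each of 3 sets of letters, for the 50 windows of the replication and S phase genes, the 45 of the mitosis genes, all genes tested and all windows of the table. The E2F bar is highest for the replication genes (48%) and the CHR bar for the mitosis genes (62.2%), whereas the CCAAT box (NF-Y box) is frequent in both lists.

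Of the 6 genes grouped here as licensing factors 2 were higher in SC cells at 8 cP. MCM10, which acts after loading by helping to activate the loaded helicase, rose by 35.9%, and CDC6, the loading factor, by 16.5%. MCM10 is given in full because of its values: it stood at 37.2, 36.2 and 47.8 CPM in SC cells at 0.77 cP, at 54.8, 50.2 and 60.1 CPM in SC cells at 8 cP, and at 73.5, 63.0 and 57.1 CPM in shTRPV4 cells (here and below in the order of replicates 1 to 3). No sample at 0.77 cP reached the lowest sample at 8 cP, and the log2 fold change in SC cells was 0.44 (SE 0.103, adjusted p = 0.00865, edgeR). ORC1 and CDT1, with fold changes of 0.23 and 0.21 on the log2 scale, did not pass the test (adjusted p = 0.0802 and 0.0643), and their groups overlapped.

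GMNN, the inhibitor of CDT1 and per length of exon the most abundant of this group (ENSG00000112312, GRCh38 chromosome 6, 24774931 to 24786099, plus strand), stood at 91.6, 83.7 and 94.8 CPM in SC cells at 0.77 cP, at 97.1, 103.7 and 100.3 CPM in SC cells at 8 cP, and at 91.5, 97.0 and 100.8 CPM in shTRPV4 cells. The groups of SC cells did not overlap, but the difference of 0.16 (95% interval 0.042 to 0.269) missed the threshold (adjusted p = 0.0525). ORC6, the smallest ORC subunit (ENSG00000091651, chromosome 16, 46689643 to 46698394, plus strand), stood apart from its group. It had 24.7, 24.7 and 27.1 CPM in SC cells at 0.77 cP, 28.1, 28.3 and 27.7 CPM in SC cells at 8 cP and 32.9, 33.1 and 33.7 CPM in shTRPV4 cells. Its 3 groups did not overlap and lay in that order. The step with viscosity was 0.13 on the log2 scale (adjusted p = 0.084) and the step with the hairpin 0.25 (SE 0.0513, adjusted p = 0.00337).

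Of the 6 MCM helicase subunits 5 were higher in SC cells at 8 cP and MCM7 did not pass (0.16, adjusted p = 0.0575). MCM6 (ENSG00000076003, chromosome 2, 135839626 to 135876443, minus strand) had the smallest adjusted p of the 45 genes. It stood at 139.8, 139 and 154.5 CPM in SC cells at 0.77 cP, at 174, 178 and 186.5 CPM in SC cells at 8 cP, and at 162, 168 and 159 CPM in shTRPV4 cells. SC cells at 8 cP were the highest group with no overlap, shTRPV4 cells lay between both groups of SC cells, and MCM6 rose in SC cells by 24.4% (log2 0.31, SE 0.0493, adjusted p = 0.000841). MCM3 (ENSG00000112118, chromosome 6, 52264014 to 52284881, minus strand) had the highest level of the subunits per length of exon, at 118.8 CPM per kilobase over the 9 samples. It had 379.8, 376 and 415 CPM in SC cells at 0.77 cP, 452, 459 and 472 CPM in SC cells at 8 cP and 464, 447 and 434 CPM in shTRPV4 cells. All samples at 8 cP were above all at 0.77 cP, and the increase in SC cells was 18% (log2 0.24, SE 0.0479, adjusted p = 0.00388).

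The 6 subunits form 1 ring in equal numbers. Between shTRPV4 and SC cells at 8 cP 1 of the 6 passed, and the subunits were not tested against each other. MCM7 was higher in shTRPV4 cells by 12.4% (adjusted p = 0.0419), with 413, 412 and 452 CPM in SC cells and 496, 464 and 475 CPM in shTRPV4 cells, but it kept this call in only 3 of the 9 fits that left out 1 sample (adjusted p up to 0.183). MCM6 had the lowest value of all 45 genes there, a log2 fold change of -0.14 (95% interval -0.246 to -0.036), which missed the threshold (adjusted p = 0.0553). It passed under upper quartile scaling (adjusted p = 0.0426) and with the 6 samples of the comparison alone (adjusted p = 0.0384). Of the 9 fits that left out 1 sample it passed in 1, that without replicate 3 of SC cells at 0.77 cP, and its adjusted p in the 9 lay between 0.0286 and 0.2. MCM2, MCM3, MCM4 and MCM5 had log2 fold changes between -0.06 and 0.04, and 23.6% of the exon bases of MCM2 are shared with a gene on the other strand.

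Of CDC45 and the 4 GINS subunits, which join the MCM ring to form the active helicase, all GINS genes were higher in SC cells at 8 cP and CDC45 did not pass. Genes on the opposite strand cover 23.4% of the exon bases of GINS4, so its value is less certain. CDC45 (ENSG00000093009, chromosome 22, 19479457 to 19520612, plus strand) stood at 42.1, 36.8 and 43.2 CPM in SC cells at 0.77 cP, at 42.1, 45.3 and 50.2 CPM in SC cells at 8 cP, and at 52.1, 48.7 and 46.5 CPM in shTRPV4 cells. Its groups of SC cells overlapped and the difference was 0.17 (95% interval 0.019 to 0.323, adjusted p = 0.106). GINS2 (ENSG00000131153, chromosome 16, 85676198 to 85690073, minus strand) stood at 28.1, 27.2 and 32.9 CPM in SC cells at 0.77 cP, at 34.9, 37.0 and 38.5 CPM in SC cells at 8 cP and at 39.5, 42.3 and 41.2 CPM in shTRPV4 cells. Its groups lay in that order with no overlap. It rose by 25% in SC cells with viscosity (adjusted p = 0.0048), and the further difference of 0.16 in shTRPV4 cells did not pass (adjusted p = 0.112).

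GINS1 (ENSG00000101003, chromosome 20, 25391008 to 25452700, plus strand) and GINS3 (ENSG00000181938, chromosome 16, 58295080 to 58406147, plus strand) were higher in both comparisons. GINS1 stood at 31.2, 30.6 and 34.0 CPM in SC cells at 0.77 cP, at 36.1, 37.5 and 39.3 CPM in SC cells at 8 cP and at 48.9, 45.2 and 43.6 CPM in shTRPV4 cells. GINS3 stood at 11.4, 10.6 and 12.1 CPM, then at 12.87, 13.03 and 13.73 CPM, and then at 15.8, 15.4 and 15.2 CPM in the same order of groups. For both genes the 3 groups were separate. GINS1 rose by 17.7% with viscosity (adjusted p = 0.0117) and was a further 21.9% higher in shTRPV4 cells (adjusted p = 0.00263), the smallest adjusted p among the 45 genes in that comparison. GINS3 rose by 16.4% (adjusted p = 0.0328) and was a further 17.2% higher (adjusted p = 0.0237). In each of these comparisons it was called in only 5 of the 9 fits that left out 1 sample.

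The clamp and all 4 clamp loader genes of the list were higher in SC cells at 8 cP. PCNA, which encircles DNA and tethers the polymerases (ENSG00000132646, chromosome 20, 5114953 to 5126626, minus strand), was the most abundant of the 45 genes per length, at 184.6 CPM per kilobase. It stood at 223, 226 and 248 CPM in SC cells at 0.77 cP, at 271, 279 and 288 CPM in SC cells at 8 cP and at 264, 266 and 266 CPM in shTRPV4 cells. SC cells at 8 cP were the highest group and SC cells at 0.77 cP the lowest, with no overlap. The increase in SC cells was 20.4% (log2 0.27, SE 0.047, adjusted p = 0.0019), and the difference of -0.07 between shTRPV4 and SC cells at 8 cP (95% interval -0.174 to 0.026) did not pass (adjusted p = 0.301).

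RFC3 and RFC4, subunits of the loader, were higher in both comparisons. RFC3 (ENSG00000133119, chromosome 13, 33818069 to 33966558, plus strand) stood at 38.2, 42.6 and 43.4 CPM in SC cells at 0.77 cP, at 49.4, 51.5 and 54.9 CPM in SC cells at 8 cP and at 59.8, 61.0 and 58.8 CPM in shTRPV4 cells. RFC4 (ENSG00000163918, chromosome 3, 186789880 to 186807058, minus strand) stood at 50.8, 50.9 and 54.6 CPM, then at 62.9, 62.8 and 62.0 CPM, and then at 78.4, 73.6 and 68.5 CPM. Neither gene had any overlap between groups. RFC3 rose by 25.5% with viscosity (adjusted p = 0.0016) and was 15.3% higher again in shTRPV4 cells (adjusted p = 0.0166). The values of RFC4 were 20% (adjusted p = 0.00377) and 17.5% (adjusted p = 0.00533). RFC2 and RFC5 rose by 12.9% and 13.5% with viscosity, and their differences in shTRPV4 cells were 0.0005 and 0.06 on the log2 scale, neither past the threshold.

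Of the 7 polymerase and primase genes 3 were higher in SC cells at 8 cP. POLA1, the catalytic subunit of the priming polymerase alpha, rose by 30.7% (adjusted p = 0.00246). POLD3, an accessory subunit of polymerase delta, rose by 21.8%, and POLE2, the second subunit of polymerase epsilon, by 15.1%. For POLE2 the groups of SC cells overlapped, and it was called in only 4 of the 9 fits that left out 1 sample. POLD1, the catalytic subunit of polymerase delta (ENSG00000062822, chromosome 19, 50384204 to 50418018, plus strand), had 117, 106 and 116 CPM in SC cells at 0.77 cP, 119, 124 and 131 CPM in SC cells at 8 cP and 133, 129 and 129 CPM in shTRPV4 cells. Its groups of SC cells did not overlap, but the difference of 0.14 missed the threshold (adjusted p = 0.0585). The primase subunit PRIM1 differed by 0.12 (95% interval -0.011 to 0.256) and POLE, the catalytic subunit of polymerase epsilon, by 0.15 (0 to 0.298). POLA2 was counted at between 2.41 and 4.2 CPM and had the lowest level of the 45 genes per length, 0.289 CPM per kilobase, while POLA1, its partner in the same complex, had 4.62 CPM per kilobase. A further gene on the same strand overlaps POLA2 over 2012 exon bases, and POLA2 shares 21.3% of its exon bases with other genes in all, so its level is uncertain.

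FEN1, the nuclease that trims Okazaki fragments (ENSG00000168496, chromosome 11, 61792911 to 61797238, plus strand), stood at 154, 151 and 178 CPM in SC cells at 0.77 cP, at 192, 194 and 202 CPM in SC cells at 8 cP and at 209, 205 and 205 CPM in shTRPV4 cells. The groups lay in that order with no overlap, and the increase in SC cells was 21.6% (log2 0.28, SE 0.0554, adjusted p = 0.00345). LIG1, the ligase that joins the fragments, and RPA2, a subunit of the single-strand binding complex, rose by 9.9% and 15.8%. LIG1 was called in only 3 of the 9 fits that left out 1 sample, and RPA2 in 7.

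The 4 genes of nucleotide supply differed in size of change. RRM2 and RRM1, the subunits of ribonucleotide reductase, rose by 30.8% and 21.4% in SC cells at 8 cP, and TYMS, thymidylate synthase, by 17.5%, although 47.9% of the exon bases of TYMS are shared with ENOSF1 and TYMSOS on the other strand and the strand setting of the counting is not given in the sources used here. TK1, thymidine kinase of the salvage route (ENSG00000167900, chromosome 17, 78174091 to 78187233, minus strand), ranked next after PCNA per length, at 134.4 CPM per kilobase. It stood at 239.5, 232 and 254.5 CPM in SC cells at 0.77 cP, at 257, 254 and 271 CPM in SC cells at 8 cP and at 243, 238 and 243 CPM in shTRPV4 cells. Its groups of SC cells overlapped. Its difference with viscosity was 0.11 (95% interval 0.009 to 0.203, adjusted p = 0.115), and that between shTRPV4 cells and SC cells at 8 cP was -0.11 (-0.207 to -0.014, adjusted p = 0.103).

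All 3 genes of chromatin assembly and maintenance were higher in SC cells at 8 cP. UHRF1, which carries DNA methylation over to new strands (ENSG00000276043, chromosome 19, 4903080 to 4962154, plus strand), stood at 145, 132 and 170.2 CPM in SC cells at 0.77 cP, at 192, 192 and 208 CPM in SC cells at 8 cP and at 219, 189 and 194 CPM in shTRPV4 cells. CHAF1A, a subunit of the histone chaperone CAF-1 (ENSG00000167670, chromosome 19, 4402640 to 4445018, plus strand), stood at 103.6, 93.6 and 110.4 CPM, then at 128, 124 and 135 CPM, and then at 142, 126 and 133 CPM. For both genes every sample at 8 cP exceeded those at 0.77 cP, and both groups at 8 cP overlapped. UHRF1 rose by 32.3% (adjusted p = 0.00316) and CHAF1A by 25.5% (adjusted p = 0.00244), while its partner CHAF1B rose by 24.5%.

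Of the 4 E2F factors 2 were higher in SC cells at 8 cP. E2F1 and E2F2, which activate transcription, rose by 21.7% and 25.2%, while the repressors E2F7 and E2F8 did not pass, with log2 fold changes of 0.10 (95% interval -0.084 to 0.289) and 0.06 (-0.187 to 0.302). The difference between these pairs was not tested. For E2F2 the groups of SC cells overlapped (adjusted p = 0.045, edgeR). It was called in only 4 of the 9 fits that left out 1 sample, with an adjusted p up to 0.164. E2F1 (ENSG00000101412, chromosome 20, 33675477 to 33686385, minus strand) stood at 108, 113 and 128 CPM in SC cells at 0.77 cP, at 137, 141 and 148 CPM in SC cells at 8 cP and at 142, 135 and 134 CPM in shTRPV4 cells. Every sample at 8 cP exceeded those at 0.77 cP (log2 0.28, SE 0.058, adjusted p = 0.00441 in SC cells).

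CLSPN, MCM10 and DTL, in that order, had the largest log2 fold changes of the 45 genes in SC cells. DTL, the substrate receptor of the ubiquitin ligase that removes CDT1 during S phase (ENSG00000143476, chromosome 1, 212035553 to 212107400, plus strand), stood at 68.4, 67.5 and 81.0 CPM in SC cells at 0.77 cP, at 95.8, 88.7 and 103.4 CPM in SC cells at 8 cP and at 103.9, 93.5 and 92.3 CPM in shTRPV4 cells. CLSPN, the fork checkpoint adaptor claspin, also given in full because of its values, stood at 50.1, 47.8 and 59.7 CPM, then at 72.2, 70.0 and 85.0 CPM, and then at 89.7, 70.3 and 68.2 CPM. In both genes the samples at 0.77 cP lay below all at 8 cP, and the groups at 8 cP overlapped widely. DTL rose by 32.7% (log2 0.41, SE 0.0726, adjusted p = 0.00205) and CLSPN by 44% (log2 0.53, SE 0.102, adjusted p = 0.00328). Between shTRPV4 and SC cells at 8 cP both had log2 fold changes of 0.01, with 95% intervals of -0.144 to 0.163 and -0.209 to 0.221.

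**Figure D3:**
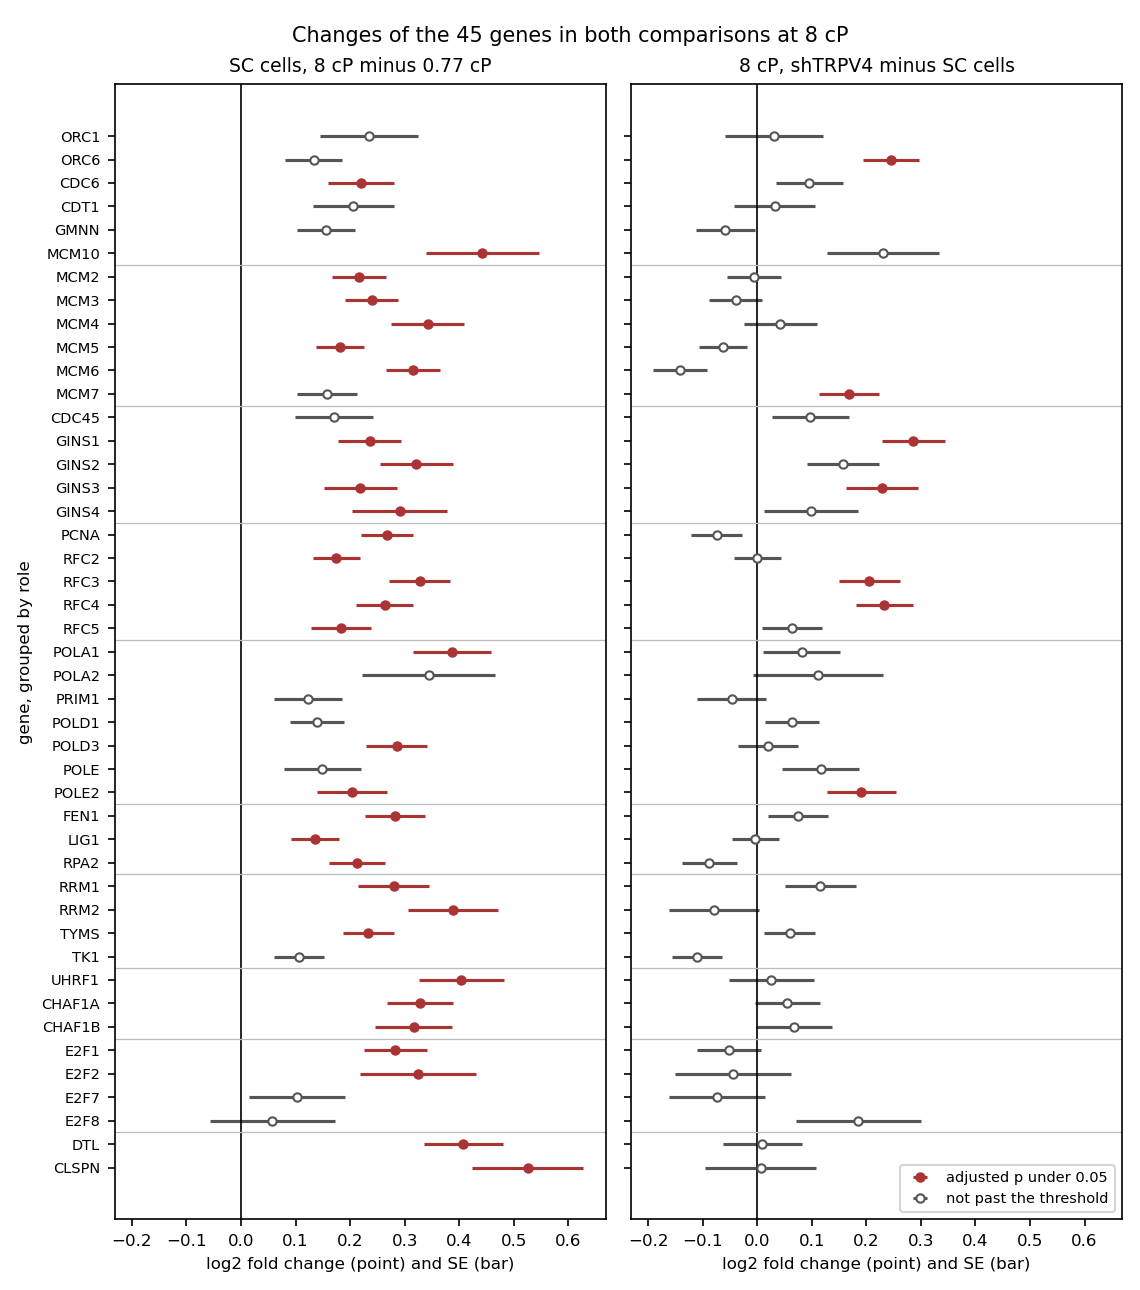
Log2 fold change (point) with its standard error (bar) of each of the 45 genes, grouped by role, for SC cells at 8 cP minus 0.77 cP (left) and shTRPV4 minus SC cells at 8 cP (right), with filled red points at an adjusted p under 0.05. All points on the left lie above 0 and 32 are filled, whereas those on the right lie on both sides of 0 and 7 are filled.

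In the comparison of shTRPV4 with SC cells, both at 8 cP, 7 of the 45 genes were higher (GINS1, ORC6, RFC4, RFC3, GINS3, MCM7 and POLE2) and 0 were lower, where 9.02% of all genes tested were higher and 11% lower. The 7 genes differed by between 12.4% and 21.9%. The median log2 fold change of the 45 genes was 0.06 beside 0.0006 for all genes tested, 31 of the 45 values were above 0, and 11 genes had an unadjusted p under 0.05, of which 2, MCM6 and TK1, had values below 0. Scaling by total counts alone changed the split over all genes tested to 11.4% higher and 8.91% lower. The 38 genes that did not pass had 95% intervals that reached from -0.27 to 0.447 on the log2 scale.

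This count too depended on single samples. It was 3 without replicate 1 of SC cells at 8 cP, 3 without replicate 2 of that group, 3 without replicate 2 of shTRPV4 cells and 4 without replicate 1 of shTRPV4 cells. In those 4 fits 5.33%, 4.78%, 5.83% and 6.72% of all genes tested were higher. GINS1, ORC6 and RFC4 were called in each of the 9 fits that left out 1 sample. RFC3 was called in 6 of them, GINS3 in 5, and MCM7 and POLE2 in 3 each. By role, 2 of the 5 genes of CDC45 and GINS and 2 of the 5 of the clamp and loader were higher, 1 each of the licensing factors, MCM subunits and polymerases, and 0 of the 16 genes of the other roles.

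The comparison with viscosity and that with the hairpin share the SC samples at 8 cP, on the higher side in one and on the lower side in the other, so their values are set side by side and not correlated. For the 7 genes called with the hairpin, the log2 fold changes with viscosity and with the hairpin were 0.24 and 0.29 (GINS1), 0.13 and 0.25 (ORC6), 0.26 and 0.23 (RFC4), 0.33 and 0.21 (RFC3), 0.22 and 0.23 (GINS3), 0.16 and 0.17 (MCM7) and 0.20 and 0.19 (POLE2). Those of ORC6 and MCM7 with viscosity did not pass. Whether a gene's values differ between these comparisons was not tested.

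shTRPV4 cells at 8 cP were also compared with SC cells at 0.77 cP, a comparison in which viscosity and hairpin change together and which shares samples with both others. Here 39 of the 45 genes were higher and 0 lower, beside 20.4% and 22% of all genes tested, and the median log2 fold change was 0.30. The largest was that of MCM10, 0.67 (an increase of 59.5%). The smallest adjusted p-values belonged to RFC3 (44.7%), RFC4 (41%), GINS1 (43.6%), ORC6 (30%) and GINS2 (39.3%). The 6 genes that did not pass were RPA2, E2F8, GMNN, PRIM1, E2F7 and TK1. TK1 had a log2 fold change of -0.0044 (95% interval -0.101 to 0.093), and its sign changed with the scaling.

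The changes reached beyond the 45 genes to other cell cycle genes. At 8 cP, 24 of 43 further replication genes were higher and 1 lower in SC cells, beside 9.57% and 9.69% of all genes tested. The median log2 fold change of the 43 was 0.18. The highest ranked were SAMHD1, which degrades nucleotides (0.40), the fork factor WDHD1 (0.36), DONSON (0.33) and the small polymerase delta subunit POLD4, the lower one at -0.55. POLD4 stood at 11.7, 11.8 and 9.53 CPM in SC cells at 0.77 cP and at 7.6, 8.13 and 6.77 CPM in SC cells at 8 cP. This was against the direction of POLD3, while the difference of POLD1 (0.14) had missed the threshold. In shTRPV4 cells 9 of the 43 were higher and 3 lower than in SC cells at 8 cP, beside 9.02% and 11% of all genes tested. The highest ranked there were the ORC subunit ORC5 (0.26), the fork protection factor TIPIN (0.38), the polymerase epsilon subunit POLE3 (0.21) and the checkpoint kinase ATR (0.28). All of these were higher, and the 3 lower genes ranked below them.

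Many mitosis genes rose with viscosity as well. At 8 cP, 22 of 40 mitosis genes were higher and 0 lower in SC cells, beside 9.57% and 9.69% of all genes tested. The median of the 40 was 0.15, and the list was led by cyclin A2 (CCNA2, 0.31) and topoisomerase TOP2A (0.33). In shTRPV4 cells 1 of the 40 was higher (MAD2L1, 0.33) and 6 were lower than in SC cells at 8 cP. These are 2.5% and 15% of the list, beside 9.02% higher and 11% lower of all genes tested. The median of the 40 was -0.07, and CDC25C (-0.35), KIF2C (-0.25) and CDC25B (-0.19) were among the lower. For the same samples the replication genes had 7 higher and 0 lower, and whether the lists differ was not tested.

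**Figure D4:**
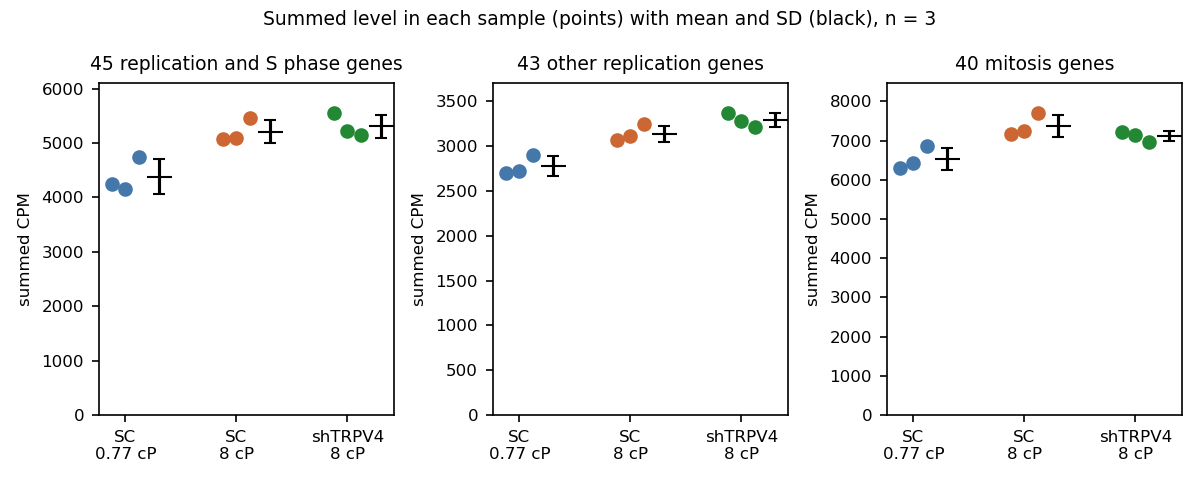
Summed CPM of the 45 replication and S phase genes, 43 other replication genes and 40 mitosis genes in each sample (points by group), with the mean and SD of 3 samples in black, on axes that start at 0. In each panel the SC cells at 0.77 cP are lowest, and replicate 3 of that group, the right-hand point, lies nearest to the samples at 8 cP.

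Some regulators of entry into S phase changed too. CDKN1A (p21), an inhibitor of cyclin-dependent kinases and of PCNA, stood at 222, 215 and 212 CPM in SC cells at 0.77 cP, at 157, 153 and 156 CPM in SC cells at 8 cP and at 122, 114 and 115 CPM in shTRPV4 cells. It fell at each step with no overlap, by 0.48 with viscosity (adjusted p = 2.36e-06) and by 0.41 with the hairpin (adjusted p = 8.95e-06) on the log2 scale. SKP2, which targets inhibitors such as p27 for degradation, stood at 26.1, 24.1 and 28.2 CPM, then at 38, 35.6 and 41.1 CPM and then at 52.8, 50.8 and 46.2 CPM, higher at each step by 0.55 and 0.39. Cyclin E1 (CCNE1), which drives entry into S phase, was 0.45 higher on the log2 scale in SC cells at 8 cP. It was a further 0.36 higher in shTRPV4 cells (adjusted p = 0.00346, edgeR).

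MYC went the other way from the replication genes with viscosity: it stood at 442, 433 and 426.5 CPM in SC cells at 0.77 cP and at 195, 191 and 190.3 CPM in SC cells at 8 cP, and fell by 1.18 on the log2 scale (adjusted p = 6.4e-10). RB1, which holds back E2F factors, was at 40.65, 44.96 and 42.19 CPM, then at 48.7, 47.1 and 48.8 CPM and then at 77.9, 73.5 and 71.0 CPM. It was higher by 0.18 with viscosity (adjusted p = 0.0236) and by 0.62 in shTRPV4 cells (adjusted p = 8.93e-07). Over the whole lists, 2 of 16 G1 cyclin and inhibitor genes were higher and 3 lower with viscosity, and 3 higher and 6 lower in shTRPV4 cells, with CDKN2C (-0.58) and CDKN2D (-0.49) among the lower. Of 13 other E2F and RB family genes 4 were higher and 0 lower with viscosity, and 3 higher and 1 lower in shTRPV4 cells. Of all genes tested 9.57% were higher and 9.69% lower with viscosity, and 9.02% higher and 11% lower in shTRPV4 cells. Whether these short lists differ from all genes was not tested.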

How the data were processed

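Stranded poly(A) libraries of 9 MDA-MB-231 samples were used. The authors mapped reads to GRCh38.p13 with HISAT2 2.2.1, counted reads on Ensembl 104 exons with HTSeq 0.13.5 and deposited raw counts per gene, per the submitters' notes and the methods; the strand option is not given in the sources used here. Groups came from the sample titles. Here 3 summary lines of each file that name no gene were left out. Counts were scaled by TMM, filtered by filterByExpr and tested with edgeR 4.0.16 (quasi-likelihood, R 4.3.3), with 1 coefficient per group over all 9 samples and Benjamini-Hochberg adjustment over 18264 genes at 0.05. The common biological coefficient of variation was 0.0633. Levels are CPM on TMM-scaled library sizes. Levels per length divide CPM by the union of GENCODE 44 exons. Intervals cover 95%. Counts summed to between 64571681 and 103518036 per sample.

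Values in every sample were given by rule for the member with the highest level per length in each of 10 roles and for the 5 with the smallest adjusted p in each comparison. From each other list up to 4 genes per comparison with the smallest adjusted p were named. The sample values of MCM10, CLSPN and MCM7 and the range of POLA2 were added after they had been seen. Sample values were also given for POLD4, CDKN1A, SKP2, MYC and RB1 of the other lists, which the rule does not cover. The value of CCNE1 in shTRPV4 against SC cells at 8 cP was likewise added outside the rule. The members and lists were chosen with earlier results of these data known. In data simulated for SC cells at 8 cP against 0.77 cP, 59% of 100 genes changed by 0.25 and 97% of 100 changed by 0.5 (log2) were called, and 0.0609% of 18064 unchanged genes. Only genes with high counts were changed there, and each gene was drawn separately, unlike the shared shifts between replicates seen in the real data. Alternatives were DESeq2 1.42.0, limma-voom 3.58.1, other scalings and filters, the 6 samples of a comparison, a replicate block, a fold change threshold and leaving out each sample.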

Additional observations from a re-analysis of the deposited data

How the results depend on the processing

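With DESeq2, limma-voom, upper quartile scaling, total counts, no filter, at least 10 counts in every sample or the 6 samples of a comparison, between 31 and 38 genes were higher with viscosity, 7 to 9 in shTRPV4 against SC cells at 8 cP, and 37 to 40 in shTRPV4 cells against SC cells at 0.77 cP. Under upper quartile scaling and with 6 samples 1 gene, MCM6, was lower in the second comparison. When a log2 change of at least 0.25 in size was also required, 20, 1 and 28 genes were higher. Leaving out each sample in turn gave 21 to 42, 3 to 9 and 34 to 41 genes higher, and medians of 0.22 to 0.32, 0.0096 to 0.0865 and 0.26 to 0.40, the highest of both comparisons with 0.77 cP without replicate 3 of SC cells at 0.77 cP. Fewer samples were then tested.

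Some values near 0 changed sign. TK1 in shTRPV4 cells against SC cells at 0.77 cP was 0.0027 with DESeq2, 0.0234 with total counts, 0.0021 with 6 samples and -0.0274 to 0.0426 when samples were left out. DTL and UHRF1 in shTRPV4 against SC cells at 8 cP ranged from -0.0481 to 0.066 and from -0.0432 to 0.0677 when samples were left out. The cause was not tested.

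The replicate numbers were not taken to pair the samples. Deviations of samples with the same number correlated at between -0.0546 and 0.0904, below the 0.1 set for pairing. Those of samples with different numbers correlated at between -0.1063 and 0.1148. With 3 samples per group this check cannot decide whether the samples were paired. Between both groups of SC cells every sample correlated best with its own number, a hint from the data and not the design, but with shTRPV4 samples several did not. With the number as a replicate block 34, 7 and 39 genes were higher, and these held all 32, 7 and 39 genes called without the block. Depth was not varied. In the simulated data 59% of the genes changed by 0.25 were called, but far fewer genes changed there than were called in the real data. How often changes of that size are missed in the real data was therefore not measured.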
